A study of Mus musculus with 24 samples.

Results

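The early response to lipopolysaccharide (LPS) was examined in bone marrow-derived macrophages (BMDMs) that lack *Irg1*, from 6 of the series' 24 libraries: 3 cultures labelled Irg1_KO and Mock/3h_LPS (LPS 3h) and 3 cultures labelled Irg1_KO and Unstimulated (Unstim.). Members were chosen by these labels alone, and every gene of the count table was considered. The *Irg1*-/- mice and the wild-type (WT) mice are on C57BL/6N, and marrow came from animals that the labels give as 8 to 20 weeks old (the study's methods give a wider range). It was grown with M-CSF, the growth factor that turns marrow precursors into macrophages, for 7 days. LPS was used at 100 ng/ml for 3 h. The LPS 3h cells had first gone through the medium change and 1 h rest of the study's restimulation protocol without an earlier LPS dose, and the labels do not say whether Unstim. cells did, so LPS and these handling steps cannot be told apart. The 6 WT libraries of the same treatments served as the comparison genotype. The deletion is present in every cell of the mouse, so these macrophages also developed without the enzyme.

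LPS is the outer-membrane lipid of Gram-negative bacteria. On macrophages it is handed by CD14 to the TLR4 and MD-2 complex, which signals through MyD88 and TIRAP at the cell surface and through TRIF and TRAM from endosomes. The first branch activates NF-kB and AP-1, which switch on cytokine and chemokine genes within minutes to hours. The second activates IRF3 and yields interferon beta, which then acts back on the cells through its receptor to switch on interferon-stimulated genes. IRG1, encoded by *Acod1*, makes itaconate from the tricarboxylic acid (TCA) cycle intermediate cis-aconitate and is itself among the genes that LPS induces in macrophages.

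The libraries hold reads from the 3′ ends of mRNAs, counted per gene. Gene reads per *Irg1*-/- library ranged from 3927378 to 14766807, and 11240 to 12488 genes had at least 1 read. Levels are given as normalized CPM, a gene's count scaled to a common library size by the trimmed mean of M-values (TMM), and 1 read was worth between 0.0535 and 0.188 CPM. Log2 gene profiles of replicate cultures correlated at 0.902 to 0.917 in Unstim. and 0.932 to 0.945 in LPS 3h, and no pair of cultures agreed within sampling noise. The first principal component of the libraries of both genotypes held 58.6% of the variance. Cultures were numbered by their labels, and n is 3 independent cultures in every group.

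*Acod1* (ENSMUSG00000022126.6, GRCm38 chromosome 14, 103046977 to 103056573, plus strand), the targeted gene, was read first as the check of the labels. Its level in the *Irg1*-/- cultures was 7.79, 11.9 and 9.64 CPM in Unstim. and 26.4, 7.94 and 1.58 CPM in LPS 3h. The groups overlapped, and the log2 fold change was 0.33 with a standard error (SE) of 0.48 (edgeR's quasi-likelihood test, Benjamini-Hochberg adjusted p = 0.63). In WT cultures the same gene stood at 9.41, 5.82 and 10.0 CPM in Unstim. and at 22837, 28063 and 15643 CPM after LPS, a log2 fold change of 11.35 (SE 0.69). The difference between the genotypes' responses was -11.02 on the log2 scale (SE 0.78, adjusted p = 6.6e-11). The libraries labelled knockout thus lacked the rise of *Acod1* that all 3 WT cultures showed, while the low levels in Unstim. overlapped between the genotypes. Which part of the gene is deleted is not given in the sources used here. Several genes named in the text overlap a neighbour (*Myd88*, *Junb*, *Nfkb2*, *Ikbkg*, *Aim2*, *Sqstm1*, *Ppp1r15a*, *Ddit3* and *Ciita* on the opposite strand, *Irf9* and *Fpr2* on the same), and their reads may include the neighbour's. Every adjusted p that follows is from the same edgeR test and adjustment over the 11878 genes tested, and folds are log2 fold changes of LPS 3h over Unstim. unless a linear fold is named.

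At an adjusted p under 0.05, 4260 of 11878 genes (35.9%) changed in *Irg1*-/- macrophages within 3 h. Of these, 2018 (17.0%) were higher and 2242 (18.9%) lower after LPS. By cultures alone, 2379 genes (20.0%) had every LPS 3h culture above every Unstim. culture and 2720 (22.9%) the reverse. An exact permutation test of 3 cultures against 3 cannot give a p under 0.1, so these are counts of separation. Among calls of large size the higher ones were more numerous: 383 genes rose by at least 4 on the log2 scale and 217 fell by as much. At 8 or more the counts were 76 and 15, at 2 or more 990 and 937, and at 1 or more 1795 and 2018. The median higher gene went from 24.2 to 106 CPM, the median lower gene from 18.4 to 5.44 CPM. In bulk RNA, fewer cells that express a gene and less of its RNA per cell cannot be told apart.

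**Figure D1:**
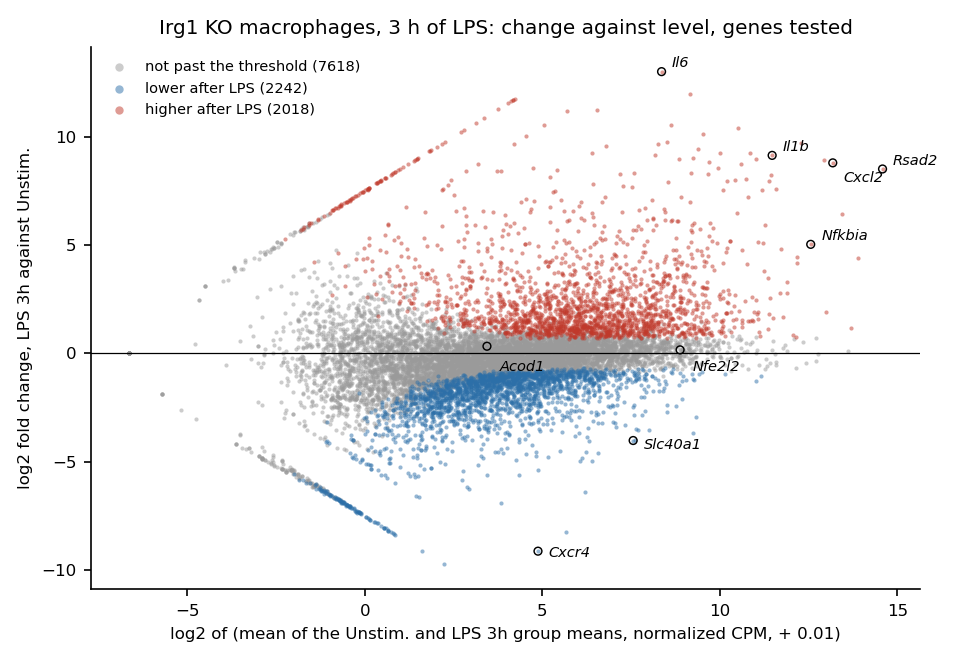
Each point is a gene tested in Irg1-/- BMDMs; the x axis is the log2 of the mean normalized CPM of both groups and the y axis the log2 fold change of LPS 3h over Unstim. (3 cultures each). Red points (2018) were called higher and blue points (2242) lower by edgeR; the diagonal lines of points at the edges are genes with 0 reads in one group, and Acod1 lies near 0 on the y axis.

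The directions given are relative to the TMM scaling, which set factors of 1.27 to 1.36 for the Unstim. and 0.666 to 0.728 for the LPS 3h libraries. The 20 genes with the most reads took 11.48% to 14.51% of reads in Unstim. and 18.05% to 20.02% in LPS 3h. Scaling by library totals alone, an alternative chosen after seeing the data, moved the median log2 fold change of all genes from -0.20 to -1.12, a shift of -0.92, and gave 1072 higher and 5811 lower calls. Under it 15.6% of calls were higher, against 47.4% with TMM. Where this reverses a direction stated in the text, the value is given beside it. Each library's label also holds a prefix numbered 1 to 4 before its barcode, and neither the labels nor the study's methods say what it stands for. All Unstim. cultures of both genotypes had prefix 4, LPS 3h culture 1 had prefix 2, and LPS 3h cultures 2 and 3 had prefix 3. No prefix was shared by both *Irg1*-/- groups, so within a prefix LPS and whatever it marks cannot be told apart. A term for the prefix was also put in the fit (the prefix term). Prefixes 2 and 4 occur in other groups of the series too, but prefix 3 occurs only in LPS 3h cultures 2 and 3. The term takes up those 2 cultures, so the LPS 3h side of this fit rests on culture 1 alone. Calls kept or lost with the prefix term are therefore descriptions that rest on a single LPS 3h culture. With the prefix term, 1396 genes (11.8%) were called higher and 965 (8.12%) lower.

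The start regions of 4 of the most strongly induced cytokine, chemokine and interferon genes are shown first, because they are the sequences on which NF-kB, AP-1 and interferon-activated factors are known to act. Each runs from 250 bases before to 50 after a RefSeq start site on GRCm38.p6, 5′ to 3′ on the gene's strand, and was taken by rule from the genes of those lists with the largest rises that hold a match to a searched motif. Capitals mark matches on either strand to the NF-kB consensus, to the core of the interferon-stimulated response element (ISRE, GAAANNGAA), to the AP-1 site (TGANTCA) or to the TATA box (TATAAA), and none of the matches overlap.
*Il6*, chr5:30012864-30013163, plus strand: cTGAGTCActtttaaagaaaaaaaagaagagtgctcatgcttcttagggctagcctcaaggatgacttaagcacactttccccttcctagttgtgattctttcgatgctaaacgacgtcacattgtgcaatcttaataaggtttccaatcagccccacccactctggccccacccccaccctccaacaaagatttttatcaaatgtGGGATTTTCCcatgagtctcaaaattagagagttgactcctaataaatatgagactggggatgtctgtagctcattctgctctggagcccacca
*Cxcl9*, chr5:92328030-92328329, minus strand: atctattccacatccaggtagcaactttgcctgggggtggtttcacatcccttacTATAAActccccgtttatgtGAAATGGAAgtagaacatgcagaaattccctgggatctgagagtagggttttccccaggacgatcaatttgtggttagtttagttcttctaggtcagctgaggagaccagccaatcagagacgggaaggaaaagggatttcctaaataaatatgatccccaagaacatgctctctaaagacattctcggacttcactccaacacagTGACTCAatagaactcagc
*Ifnb1*, chr4:88522745-88523044, minus strand: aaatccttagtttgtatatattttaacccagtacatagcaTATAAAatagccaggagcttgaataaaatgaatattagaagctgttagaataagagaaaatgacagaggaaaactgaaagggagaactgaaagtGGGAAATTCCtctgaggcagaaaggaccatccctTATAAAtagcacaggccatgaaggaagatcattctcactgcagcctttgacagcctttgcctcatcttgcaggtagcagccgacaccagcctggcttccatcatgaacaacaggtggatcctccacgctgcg
*Ifi205*, chr1:174031706-174032005, minus strand: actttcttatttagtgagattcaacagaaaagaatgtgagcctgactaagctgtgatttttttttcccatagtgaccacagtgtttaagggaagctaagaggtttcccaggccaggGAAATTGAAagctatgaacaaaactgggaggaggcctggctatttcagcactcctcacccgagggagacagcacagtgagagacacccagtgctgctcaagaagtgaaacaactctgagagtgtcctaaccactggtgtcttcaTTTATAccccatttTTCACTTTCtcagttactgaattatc
In *Il6* the NF-kB match begins 44 bases and the AP-1 match 249 bases before the start site. In *Cxcl9* the ISRE core begins 175 bases and the TATA box 195 bases before it, and an AP-1 match lies 31 bases after it. *Ifnb1* has its NF-kB match 116 bases before the start and TATA boxes 210 and 82 bases before. *Ifi205* has ISRE cores 134 bases before and 24 after the start, and a reverse-strand TATA box 10 bases after. A match describes letters and is not evidence that a factor bound there.

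Motif matches were counted for all genes with a RefSeq start region, 9360 of the 11878 tested. The NF-kB consensus was found in 12.3% of genes tested, 15.4% of genes called higher and 12.2% of genes called lower. For the ISRE core these shares were 9.05%, 14.2% and 6.56%. Among the 292 genes with a start region that rose by at least 4 on the log2 scale, 23.3% held the NF-kB consensus, 23.3% the ISRE core, 18.5% the AP-1 site and 20.55% the TATA box. Base composition differed too, since these 292 genes had start regions of 55.2% G and C, against 60.5% over genes tested. An ISRE core was present in 18 of 28 genes of the interferon list (64.3%), and the NF-kB consensus in 5 of 12 chemokine genes (41.7%) and 4 of 15 cytokine genes (26.7%). Over all 27025 genes with a start region the share was 9.55% for the NF-kB consensus, 9.76% for the ISRE core, 8.97% for the AP-1 site and 15.7% for the TATA box. These shares are descriptions, and no test was made of them.

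**Figure D2:**
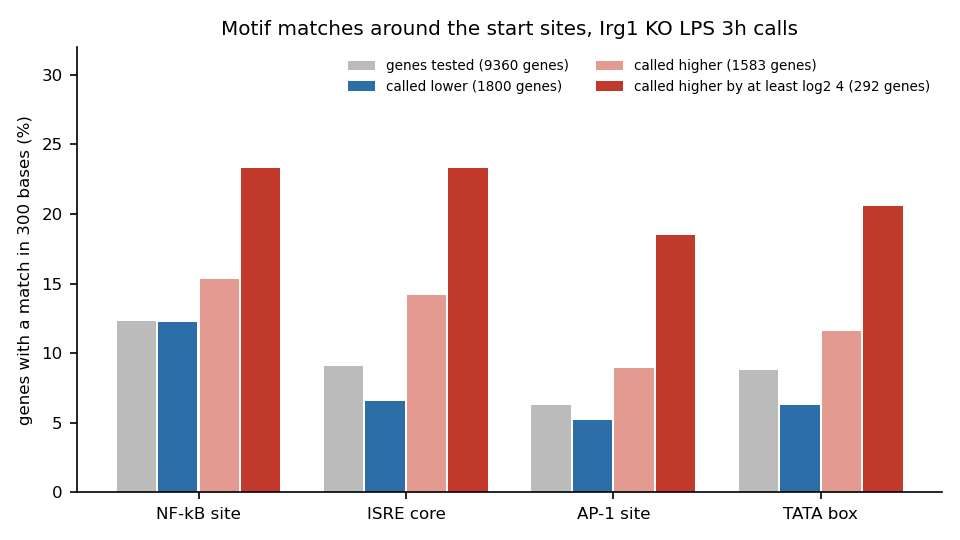
The bars give the percentage of genes whose 300-base start region holds a match, for 4 motifs, in all genes tested (9360 with a start region), genes called lower (1800), genes called higher (1583) and genes higher by at least log2 4 (292). For each of the motifs the darkest red bar is the tallest, between 18.5% and 23.3%.

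The inflammatory cytokines rose almost as a whole. Of 22 list members tested, 21 were called higher and none lower (against 17.0% and 18.9% of all genes), and the median log2 fold change was 7.82, or 6.26 with genes that were at 0 in Unstim. set to their lower bound. Summed over the list, the cultures held 228, 218 and 241 CPM in Unstim. and 25095, 21077 and 17713 CPM in LPS 3h. With the prefix term 18 were called higher, and with library totals 19.

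*Il1b* (chromosome 2, 129364570 to 129371139, minus strand), which encodes the precursor that inflammasomes process, went from 12.8, 6.97 and 10.3 CPM to 6745, 6156 and 4152 CPM. Its log2 fold change was 9.14 (SE 0.43, adjusted p = 2.2e-16), a linear fold of 564. *Il6* (chromosome 5, 30013114 to 30019981, plus strand), an inducer of the acute-phase response, had 2 reads in the 3 Unstim. cultures together and 1251, 280 and 441 CPM after LPS. The ratio of its normalized counts was 11506, with a 95% counting interval from 3185 to 95014. The libraries carry no molecular identifiers, so such intervals and floors cover counting error only. Culture 1 of LPS 3h stood well above cultures 2 and 3 for this gene, and all 3 stood far above Unstim. *Tnf*, a trigger of endothelial and macrophage activation, rose from 7.95, 5.65 and 2.78 to 1939, 2239 and 1758 CPM (log2 fold change 8.55, SE 0.47).

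Subunits of the IL-12 family, which direct T-cell responses, rose as well. *Il12b*, the p40 chain shared by IL-12 and IL-23, rose from 1.87, 3.39 and 1.55 to 3053, 3116 and 2637 CPM (10.41, SE 0.61). *Il27*, the p28 chain of IL-27, had reads in only 1 Unstim. culture (9 reads, 0.482 CPM) and reached 1039, 1247 and 1123 CPM. It overlaps *Apobr* on the opposite strand, and whether the counting used strand is not given. *Il10*, the main anti-inflammatory cytokine of macrophages, went from 0.623, 0 and 0.535 to 84.3, 75.9 and 84.6 CPM (7.50, SE 0.66). *Tnfsf15*, a TNF-family ligand that co-stimulates T cells, was at 1.56, 1.88 and 2.14 CPM in Unstim. and at 1034, 1472 and 1473 CPM after LPS. Of the list, *Osm* alone among genes tested did not pass, with 3.58, 3.77 and 4.18 CPM against 4.63, 8.42 and 12.3 CPM (adjusted p = 0.058).

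Chemokines followed the same course, with 18 of 20 higher, none lower and a median of 7.69 (6.36 with bounds). Their summed level went from 1412, 1239 and 1152 to 57903, 43937 and 40770 CPM. The prefix term left 16 higher calls, and library totals 17 higher and 2 lower. *Cxcl10* (chromosome 5, 92346638 to 92348889, minus strand), which draws T and NK cells through CXCR3, rose from 13.4, 12.4 and 10.7 to 11898, 9234 and 9086 CPM (9.70, SE 0.50, adjusted p = 1.6e-15). Its neighbours that act on the same receptor rose with it: *Cxcl9* went from 1.25, 0 and 0.375 to 948, 556 and 873 CPM, and *Cxcl11* from 0, 0.942 and 1.23 to 623, 578 and 982 CPM. *Cxcl10* and *Cxcl11* overlap *Art3* on the opposite strand. *Ccl22*, a ligand of CCR4 on T cells, had no read in Unstim. and 10.6, 9.85 and 6.51 CPM after LPS, at least 94.4-fold higher against a floor of 3 reads over the group.

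Among members named here after their values were seen, the neutrophil attractant *Cxcl2* had 35.2, 34.9 and 54.9 CPM in Unstim. and 25077, 16095 and 14498 CPM in LPS 3h. The monocyte attractants *Ccl2* and *Ccl7* rose by 6.15 (SE 0.52) and 5.75 (SE 0.36), and the leukocyte attractants *Ccl3* and *Ccl4* by 7.23 and 7.57 (SE 0.41 each). Not past the threshold were *Ccl6*, at 400, 291 and 224 against 214, 238 and 190 CPM, and *Pf4*, at 369, 369 and 495 against 495, 407 and 333 CPM.

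Interferon beta and its target genes rose nearly as a whole too. Of 35 members tested, 34 rose and none fell, with a median of 6.48. The same 34 and 0 were counted with the prefix term, and 33 and 0 with library totals. Together these genes held 1591, 1155 and 1392 CPM in Unstim. and 111057, 85728 and 116282 CPM in LPS 3h. *Ifnb1* (chromosome 4, 88522025 to 88522774, minus strand) was not read in any Unstim. culture and stood at 20.5, 10.0 and 8.97 CPM after LPS, at least 146-fold higher.

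*Ifi205*, a member of the DNA-sensing PYHIN family, rose from 1.56, 0.754 and 1.5 to 892, 1743 and 1798 CPM (10.11, SE 0.60). *Gbp5*, a GTPase that acts on bacterial and parasite membranes, rose from 4.52, 1.32 and 3.96 to 2166, 1388 and 2664 CPM (9.26, SE 0.79). *Oasl1*, of the oligoadenylate synthetase family, went from 0.623, 1.32 and 1.07 to 772, 477 and 480 CPM (9.14, SE 0.49). These families hold close copies, whose reads the counting could divide or discard. The antiviral enzyme *Rsad2* (viperin), chosen after its values were seen, rose from 121, 152 and 130 to 51522, 40848 and 54626 CPM (8.51, SE 0.47). The transcription factor gene *Irf8* rose least among the named members, by 1.47 (SE 0.30), and lost its call with library totals. *Irf9* did not pass, with 220 CPM in Unstim. culture 3 against 41.9 and 35.6 in the others and 240, 149 and 144 CPM in LPS 3h.

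A few genes varied widely between the LPS 3h cultures, which carry label prefix 2 (culture 1) and prefix 3 (cultures 2 and 3). *Irgm1*, an immunity-related GTPase named here after its spread was seen, had 754, 111 and 17.1 CPM. *Nos2*, the inducible nitric oxide synthase, had 380, 79.6 and 97.8 CPM, culture 1 again the highest. For *Slc7a2*, a cationic amino acid transporter that feeds nitric oxide synthesis, it was culture 3 that stood apart, at 457 CPM against 2329 and 2219. For these 3 genes every LPS 3h culture was above every Unstim. culture, in which none exceeded 5.03 CPM. Whether what the prefix marks contributes to this spread was not tested.

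**Figure D3:**
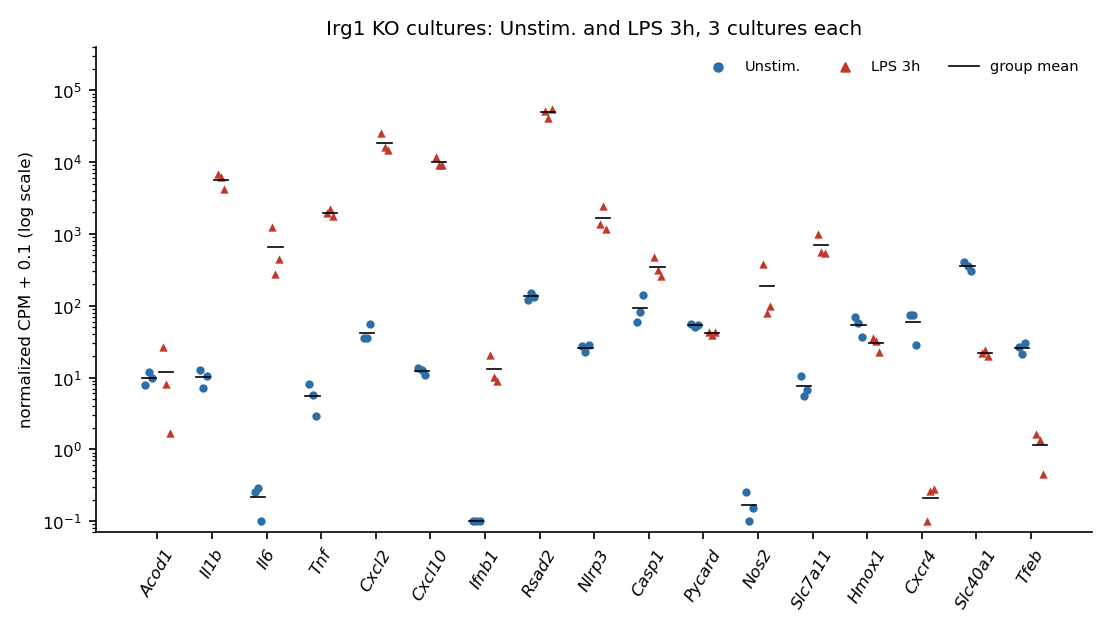
Normalized CPM plus 0.1 on a log axis for 17 genes in the Unstim. (blue circles) and LPS 3h (red triangles) Irg1-/- cultures, with a black bar at each group mean of 3. Cytokine, chemokine and interferon genes lie apart in the 2 groups by orders of magnitude, Acod1 and Pycard do not, and the last 3 genes, from Cxcr4 to Tfeb, are lower after LPS; Cxcl2 and Rsad2 were added after their values were seen.

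At the receptor, induction and loss were mixed. Of 17 genes for the LPS receptor and its adaptors, 7 rose and 3 fell, against 17.0% and 18.9% of all genes (median 0.67, but -0.25 with library totals). *Cd14* rose from 143, 108 and 72.8 to 895, 806 and 777 CPM (2.94, SE 0.36), and *Myd88*, the adaptor shared by most Toll-like receptors, from 37.4, 33.6 and 46.4 to 210, 252 and 345 CPM (2.78, SE 0.34). *Map3k8* (TPL-2), the kinase that links the IkB kinases to ERK, rose by 3.25 (SE 0.29). *Tlr4* itself stood at 43.3, 54.7 and 26.6 CPM in Unstim. and 11.2, 29.7 and 13 CPM after LPS, and these ranges overlap. Its call (-1.21, SE 0.38, adjusted p = 0.013) was lost with the prefix term and without LPS 3h culture 1, LPS 3h culture 3 or Unstim. culture 2. The lower calls of *Irak1* and of the TRAM gene *Ticam2*, which overlaps *Tmed7* on the same strand, were lost with the prefix term as well, so none of the 3 remained.

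The NF-kB list, by contrast, moved in a single direction. It had 12 of 14 members higher and none lower (median 2.25), with 10 of them higher under the prefix term. *Nfkbia* (IkB alpha), the inhibitor that NF-kB itself induces, rose from 378, 377 and 321 to 8882, 10704 and 15610 CPM, a linear fold of 32.7. *Nfkbiz*, a nuclear IkB protein needed for late cytokine genes such as *Il6* and *Il12b*, rose from 38.2, 8.86 and 46.4 to 3189, 2411 and 2877 CPM (6.49, SE 0.45). *Nfkbie* and *Nfkb2* rose by 5.13 (SE 0.72) and 4.27 (SE 0.37). Only the kinase genes *Chuk* and *Ikbkg* did not pass.

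The immediate early and AP-1 factors were split. By 3 h 11 of 23 were higher and none lower (median 0.87, or -0.05 with library totals). *Maff*, a small Maf protein, rose from 5.92, 6.60 and 3.37 to 137, 199 and 174 CPM (5.04, SE 0.41) and *Junb* from 96.3, 60.1 and 59.8 to 606, 737 and 648 CPM (3.20, SE 0.31). *Atf3*, a repressor of inflammatory genes, rose from 190, 354 and 224 to 866, 1257 and 699 CPM (1.88, SE 0.30). *Klf4* rose by 0.87 (SE 0.28), a call that was lost without Unstim. culture 1 and whose direction turned to -0.05 with library totals. Classical serum-response genes were among those not past the threshold: *Egr1* had 9.97, 8.86 and 4.44 CPM against 11.3, 11.6 and 9.32 CPM, and *Jun* 152, 233 and 233 CPM against 167, 105 and 161 CPM.

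Brakes on the pathway were induced alongside it. Of 28 feedback inhibitors, 19 rose and 3 fell (median 2.04), and the prefix term gave 18 and 3. The suppressors of cytokine signalling led. *Socs1* rose from 0.156, 0.188 and 0.375 to 241, 189 and 233 CPM (9.55, SE 0.57) and *Socs3* from 0.623, 2.45 and 3.53 to 1085, 1578 and 978 CPM (9.0, SE 0.53). The MAP kinase phosphatase *Dusp2* rose by 7.66 (SE 0.66). The members that fell were *Zfp36l2* (-3.16, SE 0.31), *Rgs2* (-2.86, SE 0.31) and *Zfp36l1* (-2.70, SE 0.34). *Zfp36l1* and *Zfp36l2* encode relatives of the RNA-destabilising protein tristetraprolin, and *Rgs2* a regulator of G-protein signalling.

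Inflammasome genes moved both ways, with 7 of 16 higher and 5 lower, against 17.0% and 18.9% of all genes (median -0.10). The sensor *Nlrp3* (chromosome 11, 59541568 to 59566956, plus strand) rose from 27.0, 22.4 and 28.4 to 1359, 2445 and 1177 CPM (6.0, SE 0.50). *Casp4*, the caspase that binds cytosolic LPS, rose from 29.9, 16 and 17.5 to 377, 428 and 406 CPM (4.26, SE 0.33). *Mefv* (pyrin) rose by 4.15 (SE 0.54) and the DNA sensor *Aim2* by 3.82 (SE 0.53). *Casp1*, the protease that matures IL-1β, rose less, from 59.5, 81.2 and 141 to 470, 315 and 263 CPM (1.89, SE 0.38). *Gsdmd*, the pore-forming substrate of these caspases, went from 25.6, 19.8 and 14.9 to 45, 39.7 and 40.5 CPM (1.06, SE 0.30), and this call was lost with the prefix term and with library totals.

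The adaptor *Pycard* (ASC) did not pass, at 55.6, 51.1 and 53.6 CPM against 43.0, 38.7 and 42.4 CPM (-0.37, SE 0.28, adjusted p = 0.32), although its cultures did not overlap. Lower were *P2rx7*, the ATP-gated channel through which extracellular ATP triggers NLRP3, from 44.9, 35.4 and 42.3 to 5.97, 8.10 and 6.68 CPM (-2.57, SE 0.30), and *Txnip*, a thioredoxin-binding protein, from 811, 757 and 617 to 149, 113 and 143 CPM (-2.43, SE 0.33). *Gsdme*, which overlaps *Mpp6* on the opposite strand, *Nlrp1b* and *Nlrc4* completed the lower members, and their calls were lost with the prefix term, which left 5 higher and 2 lower.

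Among survival and death genes, 15 of 24 rose and 2 fell (median 1.98, with 13 and 1 under the prefix term). *Traf1*, a TNF-receptor adaptor that favours survival, rose from 17.9, 8.86 and 5.62 to 587, 459 and 588 CPM (5.68, SE 0.41). *Bcl2a1d*, an anti-apoptotic member of the BCL-2 family, had 1 read in Unstim. and 109, 51.8 and 39 CPM after LPS. It has near-identical copies, so its share of the family's reads is uncertain. *Bcl2* fell from 10.6, 27.1 and 13.4 to 1.54, 5.24 and 6.16 CPM (-2.0, SE 0.50).

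**Figure D4:**
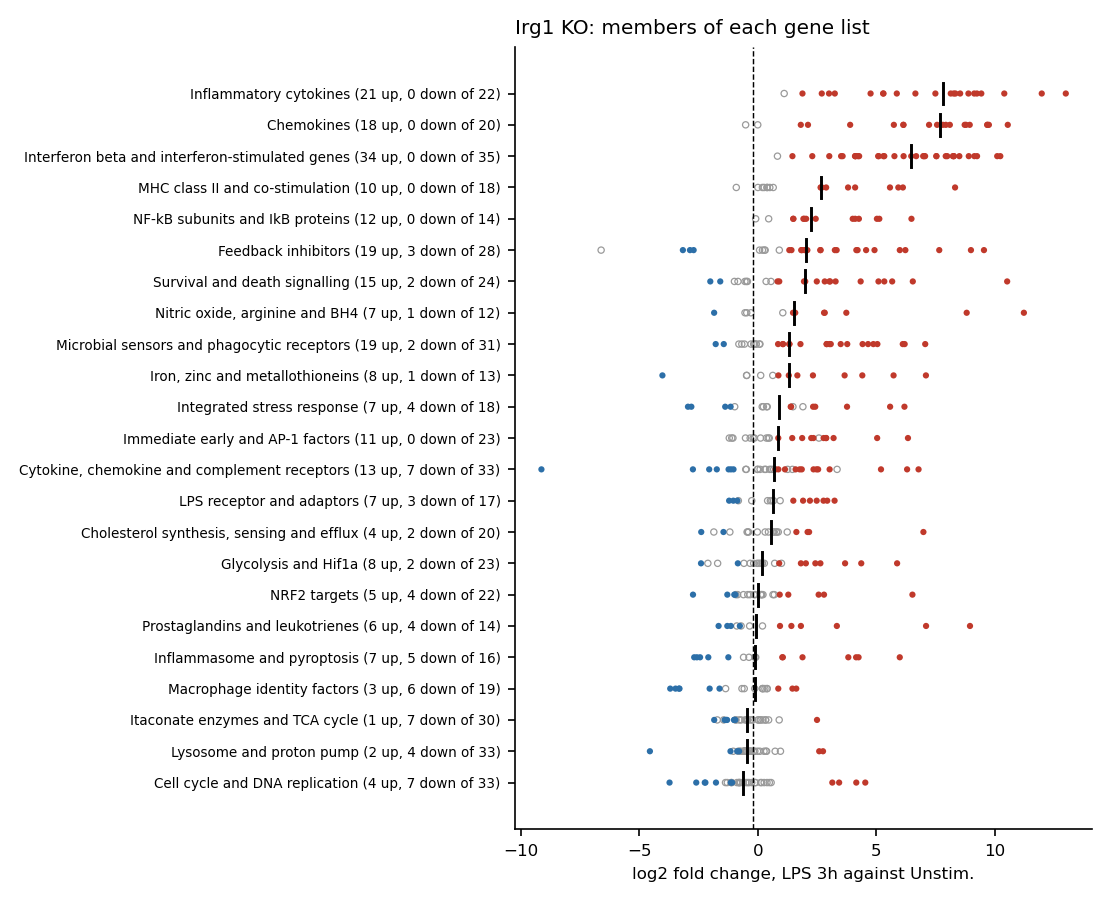
Each row is a gene list, sorted by its median log2 fold change in Irg1-/- BMDMs (black tick), and each point a member tested; filled red or blue points were called higher or lower and open points were not past the threshold. Cytokines, chemokines and interferon genes lie far to the right with medians of 7.82, 7.69 and 6.48, and the dashed line marks the median of all genes tested, -0.20.

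Around the missing enzyme, the list of itaconate-handling and TCA cycle genes held mostly small values. Of 30 members, 1 rose and 7 fell, against 17.0% and 18.9% of all genes (median -0.45, against -0.20 over all genes). The lower calls depended on single cultures: without LPS 3h culture 3 they numbered 3, without LPS 3h culture 2 or Unstim. culture 2 they numbered 4, and without Unstim. culture 1 they numbered 5. The prefix term left 5. *Idh1*, the cytosolic NADP-dependent isocitrate dehydrogenase, fell from 266, 258 and 126 to 65.3, 78.1 and 38.7 CPM (-1.84, SE 0.32). Mitochondrial *Idh2* fell from 24.6, 37.1 and 22.4 to 8.75, 13.2 and 11.6 CPM (-1.33, SE 0.36). *Clybl*, which clears citramalyl-CoA in itaconate breakdown, was called lower (-1.40, SE 0.46) with overlapping cultures, and that call was lost without LPS 3h culture 1, LPS 3h culture 3 or Unstim. culture 3. The member called higher, the citrate and succinate carrier *Slc13a3*, had 0, 0 and 0.856 against 2.47, 1.91 and 3.17 CPM, and its call was lost with the prefix term, with library totals and without any of 3 single cultures. With library totals 22 of the 30 were called lower, as were 5811 of the 11878 genes tested.

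Glycolysis genes and *Hif1a* had 8 of 23 members higher and 2 lower, against 17.0% and 18.9% of all genes (median 0.20, but -0.73 with library totals). *Hif1a* rose from 116, 74.5 and 201 to 1042, 679 and 738 CPM (2.65, SE 0.34). The glucose carrier *Slc2a6* rose from 2.18, 5.09 and 3.53 to 241, 208 and 185 CPM (5.88, SE 0.42). *Hk2*, the inducible hexokinase, rose by 4.37 (SE 0.31) and *Pfkfb3*, which makes the activator of phosphofructokinase, by 3.69 (SE 0.35). The related *Pfkfb4* fell by 2.39 on the log2 scale (SE 0.53).

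For nitric oxide and arginine metabolism, 7 of 12 genes rose and 1 fell, against 17.0% and 18.9% of all genes (median 1.54). With library totals 4 rose and 4 fell (median 0.61). *Nos2* (chromosome 11, 78920787 to 78960254, plus strand) had 2 reads in all Unstim. cultures together, and its ratio of normalized counts was 3329 with a counting interval from 921 to 27499. *Gch1*, the first enzyme of tetrahydrobiopterin synthesis, rose by 3.74 (SE 0.42), and *Spr*, the last enzyme of that route, fell by 1.84 on the log2 scale (SE 0.48). *Arg1* did not pass, with 5.30, 2.07 and 1.39 CPM against 7.72, 5.40 and 4.05 CPM. *Ass1*, which regenerates arginine, was called higher from 0, 0.188 and 0.803 to 1.03, 4.45 and 3.69 CPM (2.83, SE 0.93), but turned to -0.28 with the prefix term and lost its call without LPS 3h culture 2, Unstim. culture 1 or Unstim. culture 2.

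NRF2, the transcription factor of the oxidative stress response that KEAP1 holds in check, was represented by 22 targets and regulators. Of these 5 rose and 4 fell, near the 17.0% and 18.9% of all genes, with a median of 0.01 that became -0.92 with library totals. *Slc7a11*, the cystine importer, rose from 10.4, 5.47 and 6.64 to 985, 564 and 535 CPM (6.53, SE 0.40) and *Txnrd1*, a thioredoxin reductase, from 147, 133 and 161 to 1074, 1327 and 669 CPM (2.80, SE 0.34). *Sqstm1* (p62), an autophagy receptor, rose by 2.57 (SE 0.34). *Osgin1* fell from 16.1, 12.6 and 7.82 to 1.44, 1.27 and 2.81 CPM (-2.73, SE 0.66). *Nfe2l2*, which encodes NRF2, had 307, 494 and 535 CPM against 566, 433 and 497 CPM, and its 0.16 turned to -0.76 with library totals. *Hmox1*, heme oxygenase 1, had 69.5, 56.7 and 36.0 CPM against 35.3, 32.1 and 22.3 CPM (-0.85, SE 0.37, adjusted p = 0.07), and it passed without Unstim. culture 3 and with library totals.

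The integrated stress response had 7 of 18 genes higher and 4 lower, against 17.0% and 18.9% of all genes (median 0.90, or -0.02 with library totals). *Nupr1* rose from 5.45, 2.45 and 4.39 to 253, 217 and 131 CPM (5.59, SE 0.49) and *Ppp1r15a* (GADD34), the phosphatase subunit that ends the response, from 19.9, 24.3 and 20.6 to 410, 226 and 248 CPM (3.77, SE 0.35). *Ddit3* (CHOP), a factor of prolonged stress, fell from 20.1, 32.4 and 24.6 to 12.8, 9.05 and 7.74 CPM (-1.37, SE 0.29). Without LPS 3h culture 2 the list counted 4 and 1, without Unstim. culture 2 it counted 4 and 3, and with the prefix term 4 and 0.

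Lipid mediator genes diverged, with 6 of 14 higher and 4 lower, against 17.0% and 18.9% of all genes (median -0.07). *Ptgs2* (COX-2), the inducible prostaglandin synthase, rose from 11.8, 6.79 and 6.32 to 5064, 3649 and 3630 CPM (8.96, SE 0.57), and the terminal prostaglandin E synthase *Ptges* from 0, 0 and 0.589 to 47.1, 41.3 and 49.6 CPM (7.11, SE 0.53). The constitutive *Ptgs1* (COX-1) was called lower, from 98.3, 59.6 and 58.0 to 24.3, 22.5 and 21.8 CPM (-1.65, SE 0.41). All 4 lower calls were lost with the prefix term.

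Iron and zinc genes included 8 of 13 higher and 1 lower (median 1.31, with 5 and 2 under the prefix term). *Slc40a1* (ferroportin), the iron exporter, fell from 407, 357 and 303 to 21.6, 24.1 and 19.9 CPM (-4.02, SE 0.31), a linear fold of 16.2. *Mt2*, a zinc-binding metallothionein, rose from 27.4, 29.0 and 21.4 to 1525, 1279 and 1328 CPM (5.74, SE 0.50). The zinc and iron importer *Slc39a14* rose by 4.42 (SE 0.53). In cholesterol metabolism 4 of 20 rose and 2 fell, against 17.0% and 18.9% of all genes (median 0.56, or -0.36 with library totals). Of these, *Ch25h*, which makes 25-hydroxycholesterol, rose from 0.312, 2.83 and 0.535 to 236, 80.5 and 86.0 CPM (6.99, SE 0.77). The LXR targets *Mylip* and *Abcg1* fell by 2.38 (SE 0.29) and 1.44 (SE 0.27) on the log2 scale, the latter not with the prefix term.

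Of 31 microbial sensors and phagocytic receptors, 19 rose and 2 fell (median 1.33, with 12 and 2 under the prefix term). *Clec4e* (Mincle), a C-type lectin for mycobacterial lipids, rose from 9.66, 15.3 and 8.78 to 917, 760 and 650 CPM (6.12, SE 0.41). *Fpr2*, a formyl peptide receptor, rose by 6.20 (SE 0.43), *Olr1* (LOX-1), a scavenger receptor, by 7.07 (SE 0.73) and *Nod2*, the muramyl dipeptide sensor, by 5.05 (SE 0.44). The endosomal nucleic acid receptors *Tlr13* (-1.77, SE 0.33) and *Tlr9* (-1.43, SE 0.32) were called lower, the latter not with the prefix term.

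Cytokine, chemokine and complement receptors had 13 of 33 higher and 7 lower (median 0.67, but -0.24 with library totals), and 9 and 4 with the prefix term. Over all genes 17.0% were called higher and 18.9% lower in the main test. *Cxcr4* (chromosome 1, 128588199 to 128592293, minus strand), which holds leukocytes in marrow through CXCL12, fell from 73.7, 74.3 and 28.3 CPM to 0, 0.159 and 0.176 CPM. Only 2 reads were left in the LPS 3h cultures together, and the ratio of Unstim. to LPS 3h was 498 with a counting interval from 138 to 4117. *Il6ra*, the IL-6 receptor alpha chain, fell from 277, 155 and 258 to 35, 27.2 and 41.7 CPM (-2.73, SE 0.32). *Ccr2*, the monocyte receptor for CCL2, was lower by 2.05 on the log2 scale (SE 0.35), not past the threshold with the prefix term. *Il15ra*, which presents IL-15, rose from 2.49, 1.70 and 2.14 to 190, 157 and 160 CPM (6.31, SE 0.40) and *Ccrl2*, a non-signalling chemerin receptor, by 5.20 (SE 0.33).

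Antigen presentation divided by function. Of 18 MHC class II and co-stimulation genes, 10 rose and none fell, with and without the prefix term. *Cd40* rose from 5.61, 0.565 and 4.18 to 1298, 1244 and 921 CPM (8.33, SE 0.50), *Cd274* (PD-L1) by 6.13 (SE 0.49) and *Icam1* by 5.58 (SE 0.45). None of the class II genes passed: *Cd74*, the invariant chain, had 42.2, 31.5 and 22.3 CPM against 56.5, 41.1 and 53.1 CPM, and *Ciita*, the class II transactivator, 1.71, 4.52 and 2.46 CPM against 4.94, 3.18 and 3.17 CPM.

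Of 19 macrophage identity factors, 6 fell and 3 rose (against 18.9% and 17.0% of all genes), 10 did not pass, and the median was -0.13, against -0.20 over all genes. With the prefix term 6 also fell and 3 rose, while library totals gave 11 and 1. *Cebpa* fell from 23.1, 15.5 and 12.4 to 0.515, 3.65 and 0.528 CPM (-3.47, SE 0.61), *Rxra* by 3.32 (SE 0.39) and *Pparg* by 3.30 (SE 0.43) on the log2 scale. *Zeb2* rose by 1.63 (SE 0.27). *Spi1* (PU.1) did not pass, at 204, 179 and 217 CPM against 261, 198 and 282 CPM.

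Lysosomal genes changed little, with 2 of 33 higher and 4 lower, against 17.0% and 18.9% of all genes (median -0.46). Library totals called 26 of them lower, and 5811 of the 11878 genes tested. *Tfeb*, the master regulator of lysosome genes, nevertheless fell from 26.8, 21.1 and 30.2 to 1.54, 1.27 and 0.352 CPM (-4.55, SE 0.53). Its relative *Mitf* rose by 2.60 (SE 0.45) and the protease *Ctsc* by 2.76 (SE 0.29). Without LPS 3h culture 1 the lower calls numbered 1. Of 33 cell cycle genes, 4 rose and 7 fell (median -0.62), near the 17.0% and 18.9% of all genes, with 3 lower without LPS 3h culture 1 and 3 lower with the prefix term. The 4 that rose were *Mki67*, the cyclin genes *Ccne1* and *Ccnd2*, and *Cdkn1a* (p21), which encodes a cyclin-dependent kinase inhibitor. Of these, *Cdkn1a* went from 562, 354 and 547 to 12486, 7157 and 6537 CPM and *Ccnd2* from 44.4, 53.2 and 79.8 to 1563, 1067 and 1511 CPM.

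Over all genes, the 12 with the largest rises were *Il6*, *Il27* and *Nos2*, described with their lists, and 9 others. *Gem*, a small GTPase that inhibits calcium channels, had no read in Unstim. and 37.2, 39.9 and 36.1 CPM after LPS, at least 382-fold higher. By the same floor *Lrrc63*, *Abtb2*, *Ifitm7*, the RAS exchange factor *Rasgrp1* and *U90926* were at least 342-, 339-, 339-, 311- and 284-fold higher, tissue plasminogen activator (*Plat*) at least 216-fold and E-selectin (*Sele*) at least 173-fold. *Lipg*, endothelial lipase, rose from 0.156, 0 and 0 to 133, 93.1 and 83.2 CPM. Of the 12 genes with the largest falls, *Fam78a* went from 11.7, 11.9 and 4.71 CPM to no read, at least 53.8-fold lower, and the T-cell co-receptor gene *Cd28* from 8.88, 5.65 and 3.85 CPM to none, at least 37.8-fold lower. *Fam78a* overlaps *Nup214* on the opposite strand, as *Ifitm7*, *Rab3a* and *BC106179* overlap other genes. Besides *Cxcr4* the others were *Rab42*, *Pram1*, *Tns4*, *Fam83f*, *Vipr1*, *Rab3a*, *Gm4924*, *BC106179* and ENSMUSG00000091089.1, none above 7.55 CPM in any Unstim. culture. The calls of *Rab42*, *Pram1*, *Tns4*, *BC106179* and ENSMUSG00000091089.1 were lost with the prefix term.

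Markers of the labelled cell type were present in every culture, with sums over 8 macrophage markers of 9833, 8216 and 5568 CPM in Unstim. and 7270, 6256 and 5767 CPM in LPS 3h. Of the 8, the Fc receptor gene *Fcgr1* and *Cd14* rose, and both also stand in other lists. Neutrophil markers summed to 787, 710 and 481 against 670, 663 and 467 CPM, and 0 of 9 tested passed. In this list *S100a8*, *S100a9*, *Mmp8* and *Ngp* carried the level, while *Ly6g* had no reads in 5 of the 6 cultures. B-cell markers summed to at most 2.45 CPM. T and NK markers summed to 5.92, 11.3 and 5.41 against 10.1, 8.26 and 10.0 CPM. In this list *Cd3e* and *Cd8a* were at 0 in all cultures, while *Cd4* was tested and did not pass. Of the T and NK list *Lck* rose, from 0, 0 and 0.107 to 7.31, 4.61 and 7.21 CPM (6.54, SE 1.48). Fibroblast and endothelial markers summed to 345, 277 and 305 against 338, 298 and 447 CPM, with *Dcn* and *Kdr* called higher. Neither passed with the prefix term, and neither was past the threshold without LPS 3h culture 3 or Unstim. culture 1. Of 5 dendritic and 2 mast cell markers tested none passed, though 1 dendritic marker did without Unstim. culture 1, and of 2 erythroid markers *Epor* was called lower, at no more than 5.28 CPM and not with the prefix term. The part of other cells in any result was not tested.

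The response in *Irg1*-/- BMDMs was then set beside that of WT BMDMs, the question being whether the first 3 h differ without the enzyme. The study places the start of itaconate accumulation in BMDMs later than 3 h after LPS. How far the genotypes differed in itaconate at this time was not measured here. In WT 1874 genes (15.8%) were higher and 1931 (16.3%) lower. Called in both genotypes were 2934 genes, all in the same direction, which is 68.9% of *Irg1*-/- calls and 77.1% of WT calls. Of the *Irg1*-/- calls, 4180 (98.1%) had the same sign in WT. Across the 11878 genes the log2 fold changes correlated at 0.774 (Pearson's r, a description across genes, with all Unstim. cultures of both genotypes under the same label prefix). Tested directly, the difference between responses passed for 1 gene, *Acod1* (0.00842% of genes), by edgeR. DESeq2's Wald test called 4, adding *Tnfsf15*, *Arg1* and *Pilrb1*, a paired immunoglobulin-like receptor, each at an adjusted p of 0.0359. At an unadjusted p under 0.05 there were 675 genes (5.68%). The median SE of a difference was 0.59 on the log2 scale, or 0.45 for genes of at least 100 CPM. A difference of -3.12 (*Arg1*, SE 0.77) did not pass. Larger ones did not pass either, such as a median of -5.13 over the 2 erythroid markers tested, which were at low levels.

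**Figure D5:**
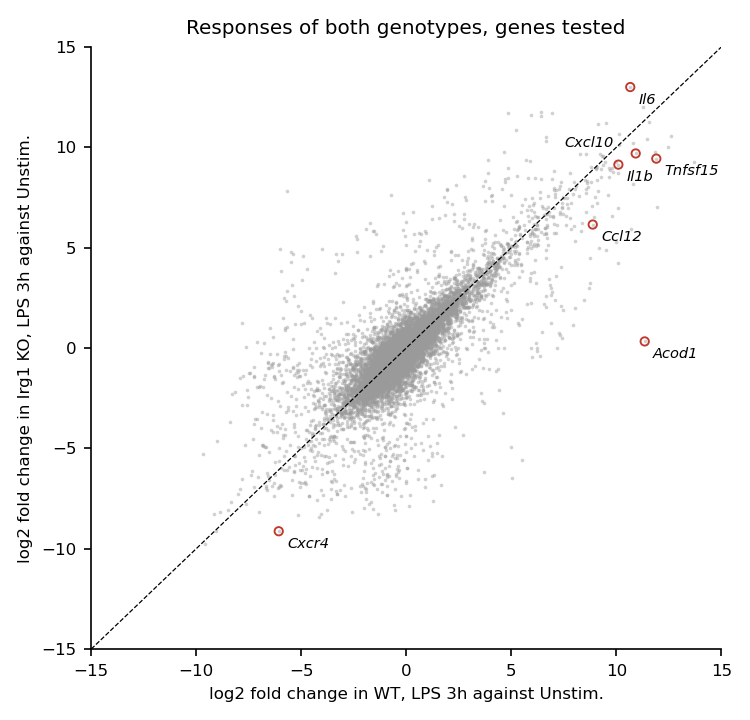
Log2 fold change of LPS 3h over Unstim. in WT (x axis) and in Irg1-/- (y axis) for every gene tested, with the line of equality dashed. Acod1 lies far below the line (11.35 in WT, 0.33 in Irg1-/-), and the other labelled genes respond in both genotypes.

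For inflammasome genes the responses differed by -0.63 for *Nlrp3* (SE 0.58), by -0.50 for *Casp1* (SE 0.52), by 0.14 for *Gsdmd* (SE 0.42) and by -0.96 for *Il1b* (SE 0.44), and none passed. The adjusted p of *Il1b*, the smallest of the 4, was 0.84. Among chemokines 9 of 20 had an unadjusted p under 0.05, against 5.68% of all genes. Their median difference was -0.93, against -0.03 over all genes. None passed after adjustment. The median in the fit without the prefix term ranged from -1.12 to -0.49 as single libraries were left out. With the prefix term the median was -0.86. At an unadjusted p under 0.05 in the main test, the cytokine list had 2 of 22 and a median of -0.03. The interferon list had 9 of 35 and a median of -0.42.

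For these chemokines the Unstim. and LPS 3h levels are given for both genotypes. Their sum was 1412, 1239 and 1152 CPM in *Irg1*-/- and 882, 820 and 1070 CPM in WT before LPS, ranges that do not overlap, a difference that was not tested. After LPS it was 57903, 43937 and 40770 CPM in *Irg1*-/- and 67949, 48342 and 49629 CPM in WT, ranges that do. *Ccl12*, a monocyte attractant chosen after its values were seen, had 11, 15 and 31 reads in Unstim. in *Irg1*-/- and 1, 1 and 9 reads in WT. Its LPS 3h levels were 171, 135 and 122 CPM in *Irg1*-/- and 134, 111 and 90.9 CPM in WT, and the responses differed by -2.72 (SE 0.62, adjusted p = 0.23). For *Tnfsf15* the WT levels were 0.451, 0.286 and 0.39 CPM in Unstim. and 1408, 1357 and 1780 CPM after LPS, a difference of -2.47 (SE 0.50, adjusted p = 0.097). *Arg1* rose in WT, from 0.837, 0.286 and 1.46 to 37.2, 9.60 and 4.64 CPM, and its responses differed by -3.12 (SE 0.77, adjusted p = 0.47). None of these 3 differences passed by edgeR. Without WT Unstim. culture 3, edgeR also called *Ccl12* (-4.14, adjusted p = 0.0256), *Pilrb1* (7.76, adjusted p = 0.0103) and the adenosine receptor gene *Adora2b* (-8.04, adjusted p = 0.000902).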

How the data were processed

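Libraries were made by 3′-end digital gene expression from oligo-dT-primed, barcoded cDNA that was pooled and amplified by PCR, without molecular identifiers. Per the labels and the study's methods, the authors aligned reads with STAR to mm10 and deposited raw counts per gene. The counting program, its annotation and its strand setting are not given in the sources used here. The table held 22165 genes, of which 6156 had no reads anywhere, and 5 summary lines were left out. In the 6 *Irg1*-/- libraries, genes held 49.84% to 52.73% of reads, 27.17% to 29.34% fell on no feature, 18.72% to 20.51% did not align uniquely and 0.2541% to 0.3692% were ambiguous. Names of 21745 genes, positions and start regions came from reference tables of GRCm38 (RefSeq for sequences).

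Counts were fitted in edgeR 4.0.16 (R 4.3.3, limma 3.58.1) over the 8 groups and 24 libraries of the series, with TMM scaling, the default filter on low counts (11878 genes left) and the quasi-likelihood test. Threshold was a Benjamini-Hochberg adjusted p of 0.05. The SE is the absolute log2 fold change over the square root of F. The common biological coefficient of variation was 0.378. Tables used Python 3.11.15, pandas 2.3.3 and SciPy 1.17.1, and plots matplotlib 3.10.9. The fit was tested on simulated data.

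Alternatives were DESeq2 1.42.0 (Wald test and size factors), no filter, a mean of at least 10 counts, the compared groups alone, TMM without the 20 genes with the most counts, a term for the numbered label prefix (its meaning is not given), replicate blocks, leaving out each culture and, chosen after seeing the data, library totals. Numbering of cultures was not used as a pairing.

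The samples, gene lists and markers were chosen with earlier results of these data known, so list counts are descriptions. Named by rule were *Acod1*, the 12 genes with the largest rises and the 12 with the largest falls (past the threshold, groups apart, and averaging 10 or more counts per library in the higher group), up to 4 called members per direction of each list, up to 6 genes per direction whose response differed between genotypes, and *Il1b*, *Il6*, *Tnf*, *Il10*, *Il12b*, *Nlrp3*, *Casp1*, *Gsdmd*, *Pycard*, *Nos2*, *Nfe2l2*, *Hmox1*, *Atf3* and *Ifnb1*. Other genes, including list members not past the threshold, were named after their values were seen. Some genes that the rule names are not reported here. Floors are 3 counts over a group of 3 cultures.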

Additional observations from a re-analysis of the deposited data

Results flagged for a closer look

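The LPS response of *Acod1* differed between the genotypes by -11.023 on the log2 scale, by the test of the difference itself (edgeR, adjusted p = 6.6e-11). It rose in 3 of 3 WT cultures and stayed between 1.58 and 26.4 CPM in the *Irg1*-/- cultures. Groups of 3 were not examined for extreme cultures.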

How the results depend on the processing

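The 4260 genes called in *Irg1*-/- macrophages numbered 3434 to 3967 when a culture was left out, with the lowest count without Unstim. culture 1. Library totals gave 6883 and the prefix term 2361. The same-numbered Unstim. and LPS 3h cultures correlated at 0.034, 0.015 and 0.031 in their deviations in *Irg1*-/-, so numbers were not taken as pairs; a replicate block gave 4233 calls, 3219 in the compared groups alone and 1487 together with the prefix term. Genes called with a different response in WT, 1 in the main test, numbered 4 with DESeq2's Wald test, 26 with no filter on low counts, 4 with the replicate block and prefix term (adding *Adora2b* at -8.24, *Ccl12* at -4.54 and *Itgb8* at 4.67), and 1 to 4 as libraries were left out (4 without WT Unstim. culture 3, 2 without *Irg1*-/- Unstim. culture 2, which added *Pnp2*). The 0.33 of *Acod1* in *Irg1*-/- became -0.58 with library totals, 1.53 with the prefix term (adjusted p = 0.0713), 0.91 with the block and prefix term, -0.047 with the replicate block, -0.32 with the block in the compared groups alone, and -0.97 to 0.88 as cultures were left out; it did not pass in the test reported.

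Of 169 genes named by rule and past the threshold, 41 lost the call and 2 turned direction with the prefix term, 74 and 3 with the block and prefix term, 8 and 1 with library totals, and 9 to 17 lost it as a culture was left out. Those that turned were *Npc1* (0.10 with the prefix term and 0.41 with the block and prefix term), *Ass1* (-0.28, prefix term), *Nlrp1b* (0.24) and *Slc13a3* (-4.38, both with the block and prefix term) and *Klf4* (-0.052, library totals). *Nfe2l2*, not past the threshold, turned to -0.76 with library totals and -0.38 with the block and prefix term. Values with the prefix term rest on LPS 3h culture 1, and the cause of each turn was not tested. Counts of 9 of 31 lists moved by over 1.5 times with the prefix term, 21 with the block and prefix term and 9 with library totals. The median SE of 0.42 on the log2 scale limits what could be called.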

Other observations

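Gene families, taken by name after seeing the data, are given as counts, and several of the guanylate-binding protein and oligoadenylate synthetase genes are also members of the interferon list. All 7 Schlafen genes tested rose (median log2 fold change 5.21), as they did with the prefix term and with library totals. Of 9 guanylate-binding protein genes 8 rose (median 6.67), of 8 oligoadenylate synthetase genes 7 (3.64), of 15 MHC class I genes 9 (2.30), of 11 *Ms4a* genes 6 (1.48) and of 12 *Parp* genes 8 (1.45), and none of these families had a lower call. With library totals 3 class I, 2 *Ms4a* and 3 *Parp* genes were called lower. These families hold close copies whose reads may have been divided or discarded.

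Of 319 *Zfp* genes, which encode zinc finger proteins, 19 rose and 82 fell (median -0.79), against 17.0% and 18.9% of all genes. With the prefix term, which rests on LPS 3h culture 1 alone, their lower share was not above that of all genes. Of 155 *Tmem* genes 14 rose and 44 fell (median -0.80), of 195 *Slc* genes 30 and 50 (-0.49) and of 39 *Trim* genes 14 and 9 (-0.23). Of 49 proteasome subunit genes 14 rose and none fell (median 0.36), but the median was -0.57 with library totals. Medians also turned sign for 101 cytosolic ribosomal protein genes (0.15, then -0.79) and for 13 mitochondrially encoded genes (0.37, then -0.56), so no direction is given for them. Respiratory chain and ATP synthase subunits had 3 higher and 5 lower calls among 84 (median -0.07), against 17.0% and 18.9% of all genes. With library totals 1 was called higher and 58 lower (median -0.999), against 1072 and 5811 of the 11878 genes tested.

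Among other genes singled out after their values were seen, *Sdc4*, a heparan sulfate proteoglycan, went from 273, 169 and 320 to 24108, 23003 and 18667 CPM. The collagenase gene *Mmp13* went from 4.68, 20.2 and 13.9 to 2863, 2343 and 5072 CPM, and the activation antigen gene *Cd69* from 1.25, 0 and 0.803 to 623, 522 and 688 CPM. *Foxo3*, a stress-responsive transcription factor, fell from 40.7, 37.1 and 34 to 1.44, 1.27 and 0.879 CPM (-4.92, SE 0.43), *Lpin1*, a phosphatidate phosphatase, from 139, 246 and 167 to 5.05, 11 and 6.68 CPM, and *Tsc22d3* (GILZ), a glucocorticoid-induced gene, from 31.2, 36.4 and 17.5 to 1.65, 0.953 and 0.704 CPM. For all 6 genes the groups did not overlap.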
